A study of Brassica napus with 74 samples.

Results

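*ATS3* transcripts were low in every subregion of the *Brassica napus* seed at the ovule, globular and heart stages, with subregion means of at most 4.26 TPM, and were abundant in all 6 subregions sampled at the mature green stage. The gene is present as a homoeologous pair, BnaA10g23630D on chromosome 10 of the An subgenome (the A10 copy) and BnaC09g48350D on chromosome C09 of the Cn subgenome (the C09 copy). Between the heart and mature green stages both copies rose in libraries of the maternal seed coat and chalaza as well as of the embryo. The part of embryo RNA in the maternal values was not tested. In TPM, from reads divided by gene length, the A10 copy was higher than the C09 copy in all 15 mature green libraries. In reads not divided by length it was higher in 14 of them. Per unit of seed storage protein transcript, both copies were lower in the embryo than in the maternal tissues of the mature green seed. This ratio was not compared with that of other genes, of which 94% were called lower in the embryo on deposited TPM.

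The 2 genes were taken by their identifiers out of the 101040 genes of the deposited table, where the study's own gene list names them as *ATS3*. The choice used no measured value, but the study had listed the pair among genes active in the seed coat from these same libraries, and had described a bias of the pair towards An there, so the tests below are not independent evidence of either. In Arabidopsis, *ATS3* (*EMBRYO-SPECIFIC PROTEIN 3*) was described as a gene whose mRNA accumulates in the developing seed, and no enzymatic activity has been assigned to its protein. The seed maturation programme to which such genes belong fills the embryo with napin and cruciferin storage proteins and with oil held in oleosin-coated bodies. The seed coat and chalaza belong to the mother plant and the embryo to the next generation, and the homoeologs of an allotetraploid such as *B. napus* descend from the same ancestral gene through its *B. rapa* and *B. oleracea* parents.

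Seeds of cultivar Topas, the only genotype and without treatment, were sectioned and 26 subregions were collected by laser microdissection at 4 stages, the ovule (ov) at 0 days after pollination, the globular (g) stage at 7 days, the heart (h) stage at 10 days and the mature green (mg) stage at 28 days. The 74 RNA-seq libraries comprised 44 from 16 maternal subregions, which were the outer seed coat (OSC), the inner seed coat (ISC), the chalazal seed coat (CZSC) and the chalazal proliferating tissue (CPT) at each stage, and 30 from 10 filial subregions, with 2 to 5 libraries a subregion. The filial subregions were the embryo proper (EP) and the micropylar, peripheral and chalazal endosperm (MCE, PEN and CZE) at the globular and heart stages, and the cotyledons (mgCOT) and root (mgROOT) of the embryo at the mature green stage. Each library was made from pooled sections of several plants, and p-values therefore measure the spread between these pools. For limma this spread was shared by all 26 subregions, most of them with few *ATS3* reads. Its SEs and p-values can therefore understate the spread between mature green pools.

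Values are TPM, the transcripts of a gene per 1000000 in a library, from reads divided by gene length. Reads were recovered from the TPM steps of 86044 genes, giving 70190 to 8868950 reads a library and 324846 to 4633803 at the mature green stage, which are lower limits of the depth. One read on the A10 copy was worth 0.0174 to 0.833 TPM at the mature green stage and up to 7.04 TPM before it. At every stage 37 genes averaged 1000 TPM or more, and together they took 80.8 to 93.4% of the TPM of the 5 mature green embryo libraries and 19.2 to 57.1% of the 10 mature green maternal ones. These embryo libraries listed 2597 to 6160 genes above 1 TPM, against 34389 to 91094 in the maternal libraries. Comparisons between embryo and maternal tissue were therefore also made on TPM rescaled to 1000000 without those 37 genes. The seed coat and chalaza markers separated the mature green tissues only in part. The summed *CEP1* level was 1.82 to 18.9 TPM in maternal libraries and at most 0.242 TPM in embryo libraries. *GXM3* was 0.333 to 8.31 TPM in maternal libraries and at most 0.222 TPM in the embryo. *ASPG1* (1.13 to 5.98 TPM) and *AWPM-19-L* (92.8 to 163 TPM) were present in the embryo, below their maternal ranges of 7.60 to 31.7 TPM and 180 to 2367 TPM. After rescaling, *GXM3*, *ASPG1* and *AWPM-19-L* overlapped between the tissues. *GH9B9*, used as an endosperm marker, had 0.728 to 6.94 TPM in maternal libraries and at most 0.00042 TPM in the embryo. Storage protein transcripts, the sum of 10 napin and 8 cruciferin genes as the study names them, were abundant in maternal libraries as well, at 2500 to 63226 TPM against 21250 to 62694 TPM in the embryo. The part of embryo RNA in the maternal *ATS3* values was not tested. Labels conflicted for 3 mature green libraries, as mgCPT replicate 1 was also described as endosperm and mgCOT replicates 1 and 2 as seed coat. The column of 1 unnumbered mgCZSC library matched no sample title, and mgCZSC replicate 2 had no other column. This library may be replicate 2 or a repeat of mgCZSC replicate 3, which was not tested. Its storage protein sum was 35314 TPM, against 2500 TPM in replicate 3. Replicate 3 of hCZSC and replicate 1 of mgCPT listed the most genes above 1 TPM of all libraries, 98001 and 91094.

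On deposited TPM the A10 copy had its highest mean in the chalazal proliferating tissue and its lowest in the embryonic root, with wide spread between libraries, an order that turned after rescaling, where mgCOT and mgROOT came first. Its level was 64.7, 190 and 313 TPM in the 3 mgCPT libraries, 114 and 246 TPM in mgOSC and 134 and 190 TPM in mgISC. In mgCZSC it was 206 TPM in replicate 1, 146 TPM in the unnumbered library and 29.8 TPM in replicate 3. These maternal libraries overlapped between all 4 subregions, and mgCZSC replicate 3 was the lowest of the 10. The embryo libraries had 86.9, 58.7 and 162 TPM in mgCOT and 49.9 and 118 TPM in mgROOT. By mean the order was mgCPT (189 ± 124 TPM, SD, n = 3), mgOSC (180 ± 93.1, n = 2), mgISC (162 ± 39.5, n = 2), mgCZSC (127 ± 89.5, n = 3), mgCOT (103 ± 53.6, n = 3) and mgROOT (84.0 ± 48.2, n = 2). No 2 neighbours in this order differed beyond their spread, and only the step from mgROOT down to the earlier stages was free of overlap.

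The C09 copy had lower levels and nearly the same pattern. It was present at 72.5 and 146 TPM in mgOSC, at 36.4, 109 and 124 TPM in mgCPT and at 43.7 and 81.4 TPM in mgISC. In mgCZSC it was 124 TPM in replicate 1, 35.5 TPM in the unnumbered library and 10.5 TPM in replicate 3, the lowest of all 15. Cotyledon libraries had 47.3, 34.9 and 104 TPM and root libraries 40.0 and 63.1 TPM, within the range of the maternal ones. Its order by mean was mgOSC (109 ± 52.3 TPM, n = 2), mgCPT (89.7 ± 46.9, n = 3), mgISC (62.6 ± 26.6, n = 2), mgCOT (62.0 ± 36.7, n = 3), mgCZSC (56.7 ± 59.8, n = 3) and mgROOT (51.5 ± 16.3, n = 2), again with overlap between all neighbours. Over the 26 subregion means of log2(TPM + 1) the copies had a Pearson r of 0.99, a description over points that share their libraries and the step to the mature green stage.

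**Figure D1:**
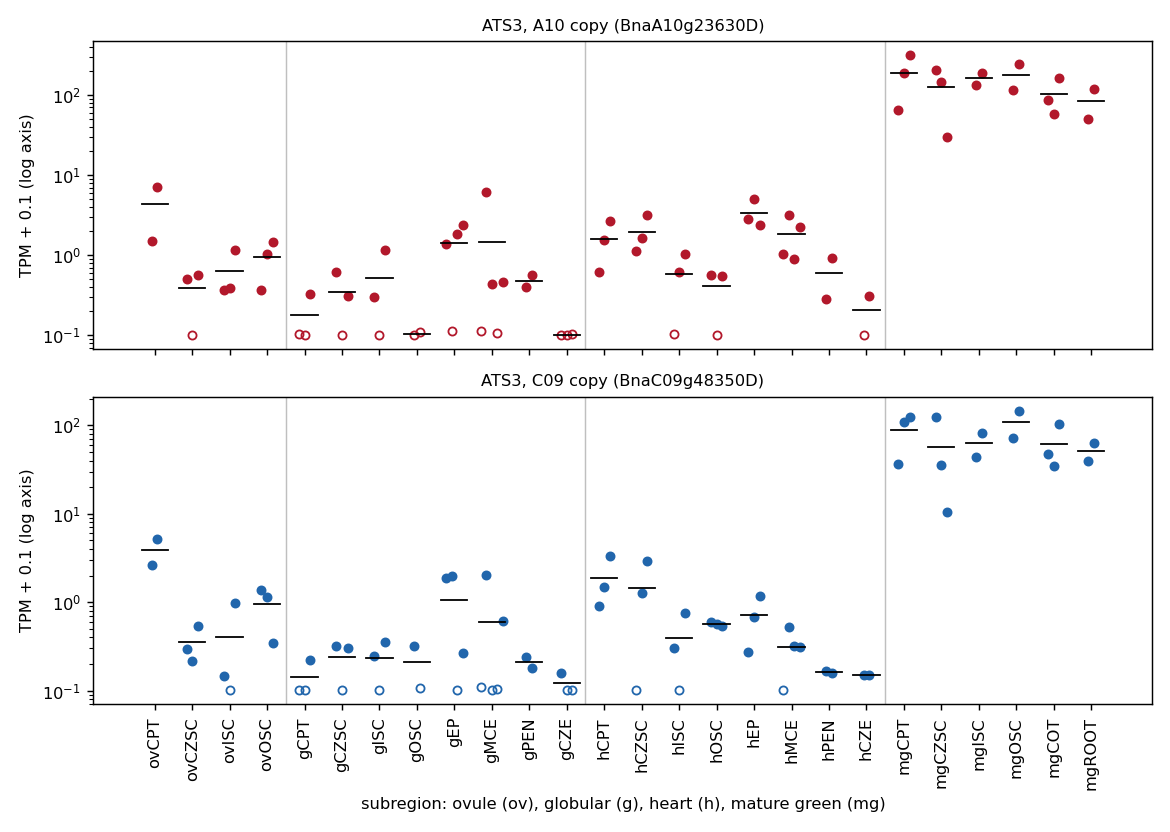
Levels of the A10 copy and of the C09 copy (1 panel each) in all 74 libraries, in TPM + 0.1 on a log axis, by subregion along the horizontal axis; each point is 1 library, hollow points had no read on the copy, and bars are subregion means. The 15 mature green libraries sit between 29.8 and 313 TPM for the A10 copy and between 10.5 and 146 TPM for the C09 copy, above all 59 earlier libraries.

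Before the mature green stage the pair was low and often without reads. The A10 copy had a mean of 1.01 TPM over 59 libraries in 20 subregions, with no read in 16 libraries and above 1 TPM in 19. For the C09 copy the mean was 0.579 TPM, with no read in 15 libraries and above 1 TPM in 12. A library without a read allowed, at 3 reads and for counting error only, up to 0.184 to 3.98 TPM of the A10 copy and up to 0.132 to 2.70 TPM of the C09 copy. The highest early values of both copies, 7.11 and 5.05 TPM in ovCPT replicate 2, rested on 1 read each, with exact 95% Poisson intervals of 0.178 to 39.2 TPM and 0.127 to 27.9 TPM. The measured value of every early library was below that of the lowest mature green library, though the intervals of ovCPT replicate 2 reached past it. That library had 940 TPM of storage protein mRNA, and its part in the *ATS3* value was not tested.

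Among the early subregions with more than a few reads, the heart stage embryo proper had the highest mean level of the A10 copy. Its 3 hEP libraries had 2.71 TPM from 11 reads (95% interval 1.35 to 4.84), 4.92 TPM from 12 reads (2.54 to 8.59) and 2.27 TPM from 15 reads (1.27 to 3.74). For the C09 copy the same libraries had 0.177, 0.585 and 1.07 TPM from 1, 2 and 10 reads. The same libraries had 104 to 1101 TPM of storage protein mRNA, against 6.69 to 299.5 TPM in the heart stage maternal libraries. In the heart stage chalazal seed coat the A10 copy had 1.02, 1.53 and 3.06 TPM from 9, 13 and 44 reads, and the C09 copy had no read in replicate 1 and 1.17 and 2.82 TPM from 14 and 57 reads in the others. Its replicate 3, the highest, was the library with the most genes listed. In the heart stage micropylar endosperm (hMCE) the A10 copy had 0.801 to 3.08 TPM from 3 to 21 reads, which overlapped hEP. Rescaled without the abundant genes it had 2.67 to 8.19 TPM in hMCE and 7.56 to 12.7 TPM in hEP. Compared with the mean of the other heart subregions, hMCE among them, the A10 copy was higher in hEP by 1.25 ± 0.42 (SE) on the log2(TPM + 1) scale. This was 2.37-fold, with a Benjamini-Hochberg adjusted p of 0.0206 by limma, a call that 6.59% of all genes also received in that direction. The difference lost the call without hEP replicate 1 (1.33, adjusted p 0.0554) or hEP replicate 2 (0.99, adjusted p 0.184), and it was 0.28 with a pseudocount of 10 TPM. Rescaled without the abundant genes it was 2.14 ± 0.52 (4.41-fold, limma adjusted p 0.000967), where 14.2% of all genes were higher, and the call held with each library left out (1.92 to 2.26, adjusted p of at most 0.0197). For the C09 copy the difference was 0.12 ± 0.38 (limma adjusted p 0.794). Between hEP and the globular embryo proper neither copy passed the limma test, at 0.96 ± 0.51 (adjusted p 0.471) for A10 and -0.16 ± 0.46 for C09, where 0.891% of genes were called.

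Whether *ATS3* mRNA was higher in maternal libraries during maturation was addressed by comparing mature green with heart stage seed coat and chalaza. In the 12 heart stage maternal libraries the A10 copy ranged up to 3.06 TPM with a mean of 1.05 ± 0.963 TPM (SD), and the C09 copy up to 3.21 TPM with a mean of 0.971 ± 1.04 TPM. In the 10 mature green maternal libraries the lowest, median and highest levels were 29.8, 168 and 313 TPM for A10 and 10.5, 77.0 and 146 TPM for C09, so the stages did not overlap. The A10 copy rose by 6.26 ± 0.29 on the log2(TPM + 1) scale (76.8-fold) and the C09 copy by 5.22 ± 0.26 (37.3-fold), with limma adjusted p of 3.23e-25 and 8.36e-24. This call was common among all genes, as 19.1% of those tested were higher at the mature green stage, although the median gene changed by 0.08. In these pooled tissues, more cells of an expressing type and more RNA per cell cannot be told apart. The mature green maternal libraries also had 2500 to 63226 TPM of storage protein mRNA, and the part of embryo RNA in the rise was not tested. The size of the rise depended on the pseudocount, with 3.81 and 2.83 for A10 and C09 at 10 TPM and 7.56 and 6.61 at 0.1 TPM.

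In the embryo the same comparison set mgCOT and mgROOT against hEP. The A10 copy rose from 2.27 to 4.92 TPM in hEP to 49.9 to 162 TPM in the mature green embryo, and the C09 copy from 0.177 to 1.07 TPM to 34.9 to 104 TPM, without overlap. By limma the rises were 4.37 ± 0.50 (20.7-fold, adjusted p 8.00e-11) for A10 and 5.10 ± 0.45 (34.3-fold, adjusted p 2.30e-14) for C09. Of all genes 0.651% were called higher here, and the median gene changed by -0.10. Rescaled without the abundant genes the rises were larger, at 6.13 (70.2-fold) and 7.42 (171-fold), with 2.21% of all genes higher, and after quantile normalization they were 102-fold and 189-fold. With pseudocounts of 10 and 0.1 TPM they were 2.85 and 4.72 for A10 and 2.58 and 6.45 for C09.

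The rise of the A10 copy was smaller in the embryo than in the maternal tissues on the deposited scale, by 1.89 ± 0.58 on the log2 scale (limma adjusted p 0.0117). Many genes shared this direction, as 18.3% of all genes had a lower change in the embryo and the median gene differed by -0.45. The call was lost without hEP replicate 2 or mgROOT replicate 1 (adjusted p up to 0.0734) and without the libraries with conflicting labels (-1.66, adjusted p 0.0597). With the 37 abundant genes removed the difference was -0.55 (adjusted p 0.593). For the C09 copy the difference was -0.12 ± 0.52 (limma adjusted p 0.891) on the deposited scale and turned to 1.75 ± 0.64 (adjusted p 0.0374) after rescaling, where 2.87% of genes were higher. That C09 call was lost in 11 of 30 settings with 1 library left out, among them each of hEP replicates 1 and 2 and both mgROOT libraries (1.36 to 2.16, adjusted p up to 0.186).

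The order of embryo and maternal tissue at the mature green stage also turned with the scaling. On deposited TPM the A10 copy averaged 163 ± 84.1 TPM in the 10 maternal libraries and 95.2 ± 46.1 TPM in the 5 embryo libraries, and the C09 copy 78.3 ± 46.2 and 57.8 ± 27.8 TPM, with overlap for both. Neither copy passed the limma test, at -0.73 ± 0.38 (adjusted p 0.0597) and -0.29 ± 0.34 (adjusted p 0.397), embryo minus maternal, in a comparison where 94% of all genes were called lower in the embryo and the median gene differed by -1.08. The A10 difference passed when any 1 of mgCPT replicate 1, mgCZSC replicate 3, mgOSC replicate 1, mgCOT replicate 3 or mgROOT replicate 2 was left out (-1.04 to -0.43 over all libraries left out in turn).

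Rescaled without the abundant genes, the A10 copy had 53.5 to 661 TPM in maternal libraries (median 271) and 543 to 885 TPM in embryo libraries (median 734), which overlapped. The C09 copy had 18.8 to 262 TPM and 377 to 540 TPM, which did not. On that scale both copies were higher in the embryo, A10 by 1.58 ± 0.47 (2.99-fold, limma adjusted p 0.00242) and C09 by 2.02 ± 0.42 (4.06-fold, adjusted p 5.11e-05), while 1.23% of all genes were higher and the median gene differed by -1.15. Leaving out single libraries kept both calls, with differences of 1.36 to 1.73 and 1.79 to 2.26. Which tissue of the mature green seed had more *ATS3* mRNA thus depended on whether the 37 genes were counted in the total.

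**Figure D2:**
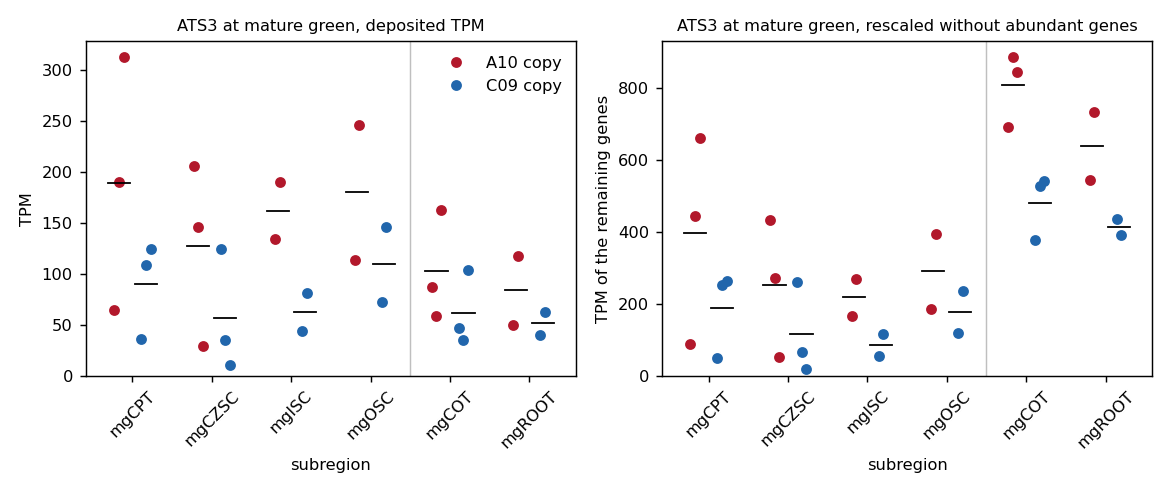
Levels of the A10 and C09 copies in the 15 mature green libraries by subregion, on a linear axis, as deposited TPM and as TPM rescaled without the 37 abundant genes. Points are libraries and bars are subregion means. On deposited TPM the embryo (mgCOT, mgROOT) lies within the maternal range, and this order turns after rescaling, where the embryo reaches 543 to 885 TPM against 53.5 to 661 TPM in maternal tissue for A10.

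Within either tissue no subregion stood apart. The A10 copy differed between mgCOT and mgROOT by 0.29 ± 0.62 and the C09 copy by 0.15 ± 0.56 on the log2(TPM + 1) scale, both with a limma adjusted p of 1.00, where 0.0101% of genes were called. Set against the other mature green maternal subregions, mgCZSC had the lowest values, at -0.73 ± 0.47 for A10 (limma adjusted p 0.334) and -1.09 ± 0.42 for C09 (adjusted p 0.0888), with 9.59% of all genes called. The C09 difference passed when mgCPT replicate 1 or mgCZSC replicate 1 was left out, and ranged from -1.96 to -0.24 as single libraries were left out. Neither copy was called in mgCPT (A10 0.19 ± 0.47, C09 0.37 ± 0.42), where 0.662% of genes were, in mgISC (0.22 ± 0.53 and -0.16 ± 0.48; 3.58%) or in mgOSC (0.32 ± 0.53 and 0.88 ± 0.48; 0.959%). These values rest on 2 or 3 libraries a subregion, with SEs of 0.42 to 0.62.

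The A10 copy exceeded the C09 copy in every mature green library, and this ratio is free of the scaling between libraries. In maternal tissue log2 of A10 over C09, from TPM + 1, averaged 1.13 (SD 0.455, n = 10), a 2.19-fold ratio, and was above 0 in 10 of 10 libraries (two-sided exact permutation test over sign flips, p = 0.00195, the smallest p it can give). In the embryo it averaged 0.69 (SD 0.233, n = 5), 1.61-fold, and was above 0 in 5 of 5 libraries, where the exact test cannot go below the p of 0.0625 obtained. Both tests took libraries as the unit, without regard to subregion. Leaving out single libraries, the unnumbered mgCZSC library included, gave maternal means of 1.03 to 1.18 with an exact permutation p of 0.00391, the smallest for 9 libraries. The A10 copy supplied 68.5 ± 6.66% of the TPM of the pair in maternal and 61.8 ± 3.90% in embryo libraries.

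By library, the log2 ratio was 0.82, 0.80 and 1.33 in mgCPT, 1.59 and 1.21 in mgISC, and 0.65 and 0.74 in mgOSC. In mgCZSC it was 0.72 in replicate 1, 2.01 in the unnumbered library (175 and 60 reads) and 1.43 in replicate 3 (160 and 79 reads). The embryo had 0.86, 0.73 and 0.64 in mgCOT and 0.31 and 0.89 in mgROOT. The ratio was highest in the unnumbered mgCZSC library, followed by mgISC replicate 1, mgCZSC replicate 3 and mgCPT replicate 3, and lowest in mgROOT replicate 1. Embryo and maternal libraries overlapped, and their difference of -0.44 had an exact permutation p of 0.0706 (two-sided, n = 10 and 5), which became 0.0495 without mgCZSC replicate 1 and 0.0420 without mgOSC replicate 1.

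The size of the ratio depended on gene length. The length by which reads of the C09 copy were divided was 1.41 times that of the A10 copy. In reads, A10 was higher in 14 of 15 libraries, by 0.888 to 2.92 times (median 1.27), the exception being mgROOT replicate 1 with 2204 against 2481 reads. Without division by length the mean log2 ratio was 0.65 (SD 0.464) in maternal libraries, where the exact permutation p remained 0.00195 (n = 10), and 0.21 (SD 0.236) in embryo libraries, with an exact p of 0.188 (n = 5). Only uniquely mapped reads had been counted, and the number of reads that each copy lost for matching the other was not tested.

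**Figure D3:**
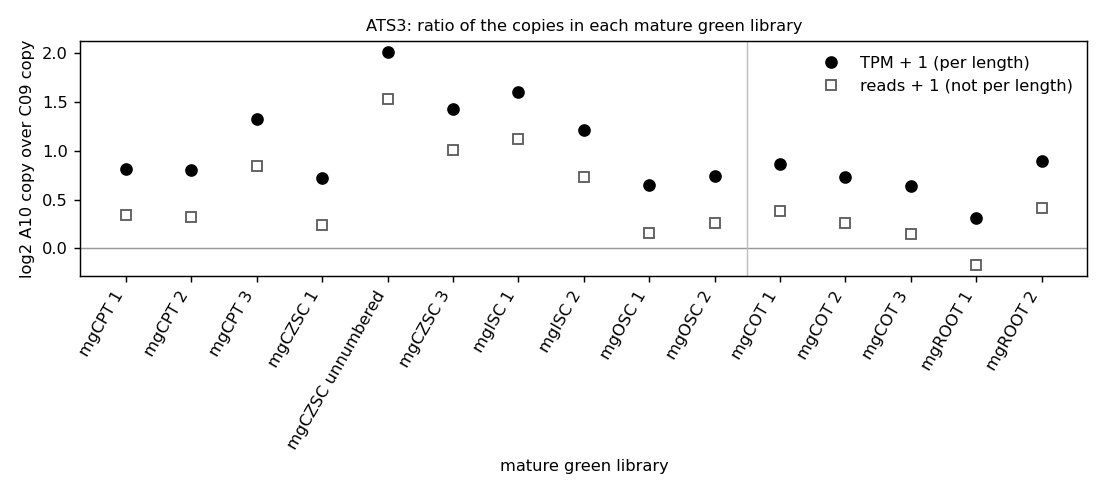
Log2 ratio of the A10 over the C09 copy in each of the 15 mature green libraries, by subregion, from TPM + 1 (black circles, divided by length) and from reads + 1 (open squares, not divided by length). All TPM ratios lie above 0, from 0.31 in mgROOT replicate 1 to 2.01 in mgCZSC, and the read ratios are lower, with mgROOT replicate 1 below 0.

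Of the 45 homoeolog pairs in the study's list, 28 reached 10 TPM over both copies at the mature green stage. By the mean log2 ratio of the An over the Cn copy *ATS3* was 6th among them over all 15 libraries, 3rd in the maternal and 7th in the embryo libraries. First over all libraries was *FAE1*, the enzyme of very long chain fatty acid elongation, at 5.33, and last a napin pair, *SESA4* (BnaA08g14120D and BnaC08g12450D), at -4.57. The ratio was above 0 for 11 of the 28 pairs, with a median of -0.26, and *ATS3* was 1 of 6 pairs whose An copy was higher in all 15 libraries, against 6 whose Cn copy was. The oleosin gene BnaA07g14960D (*OLEO2*) stands in more than 1 of those latter pairs. The study chose the listed pairs for its figures, in part from clusters of these same data, so the ranks hold within this list only. The caleosin pair *PXG1*, an oil body protein gene known in Arabidopsis as *ATS1*, had a ratio of -0.26 and a higher An copy in 4 of 15 libraries.

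Relative to storage protein mRNA, *ATS3* was more abundant in maternal tissue than in the embryo. The storage protein sum itself averaged 28554 TPM in maternal and 43602 TPM in embryo libraries. On deposited TPM, 94% of all genes were called lower in the embryo, with a median difference of -1.08. Other genes were not set against this sum, so the direction of the ratio does not set *ATS3* apart from them. Per 1000000 TPM of the 18 storage protein genes, the A10 copy had 3889, 5449 and 11917 TPM in the lowest, median and highest of the 10 maternal libraries. The 5 embryo libraries had 2151, 2764 and 2590 TPM in mgCOT and 1487 and 1966 TPM in mgROOT. All maternal libraries were above all embryo libraries. The highest maternal ratio was in mgCZSC replicate 3, which had the least storage protein mRNA of all 15 (2500 TPM), and the lowest was in mgOSC replicate 2, which had the most (63226 TPM).

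For the A10 copy the embryo minus maternal difference of this ratio was -1.62 on the log2 scale, to 0.326 of the maternal level, with a two-sided exact permutation p of 0.000333, the smallest possible for 10 against 5 libraries. This test took libraries as the unit, although they came from only 4 maternal and 2 embryo subregions. The C09 copy had 1007, 3192 and 5986 TPM per 1000000 in maternal libraries and 1050 to 1656 TPM in embryo libraries, which overlapped through a single maternal library, the unnumbered mgCZSC. Its difference was -1.175, to 0.443 of the maternal level (exact permutation p = 0.004995, n = 10 and 5). As single libraries were left out, the differences ranged from -1.71 to -1.49 for A10 and from -1.35 to -1.06 for C09, with exact p of at most 0.00200 and 0.0130. Because the denominator was itself measured in tissues that differ in embryo and seed coat RNA, the ratio describes *ATS3* relative to these 18 genes only. They include the *CRB* pair, which the study names as cruciferin but whose symbol in Arabidopsis also stands for a chloroplast RNA-binding protein, and which made up at most 0.187% of the sum. Without that pair the differences were -1.62 and -1.18, with the same exact permutation p.

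**Figure D4:**
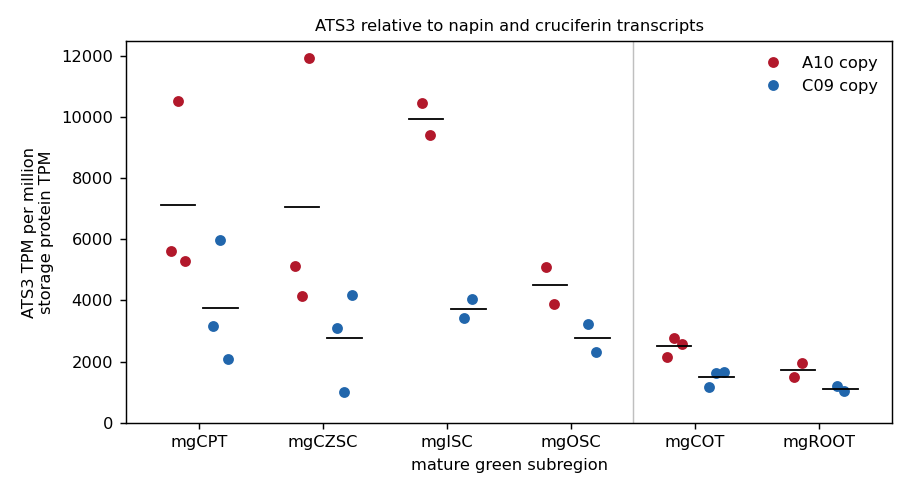
TPM of the A10 and C09 copies per 1000000 TPM of 18 storage protein genes in the 15 mature green libraries, by subregion; points are libraries. The A10 copy lies at 3889 or more in every maternal library and at 2764 or less in every embryo library, whereas for the C09 copy 1 maternal library (1007) lies below the embryo range of 1050 to 1656.

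The wider set of maturation genes gave the frame for these values. A list of 35 napin (*SESA*), cruciferin (*CRU*, *CRB*), oleosin (*OLEO*), *FAE1*, *PXG1* and *LEA18* genes was used, the last of these a late embryogenesis abundant protein gene. From heart to mature green in maternal tissue 33 of the 35 were called higher and 1 lower by limma, with a median of 7.55, beside 19.1% higher among all genes, and 26 of them changed by more than the A10 copy and 29 by more than the C09 copy. In the embryo 30 were higher and 2 lower (the *CRB* pair), with a median of 6.16, beside 0.651% higher among all genes, and 26 and 24 changed by more than A10 and C09. Without the *CRB* pair, 33 of 33 were higher in maternal tissue and 30 of 33 in the embryo. By level in mature green maternal libraries the A10 copy was 27th and the C09 copy 32nd among these genes and the pair together. *ATS3* was therefore among the less abundant genes of this set, far below the napin *SESA3* copy BnaC07g40770D at 4875 ± 3123 TPM (SD, n = 10).

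Between embryo and maternal tissue at the mature green stage, 18 of the 35 genes were lower in the embryo and 4 higher on deposited TPM (median -0.99), which turned to 3 lower and 17 higher after rescaling (median 1.01). Among all genes 94% were lower and 0.0715% higher on deposited TPM, and 79.5% lower and 1.23% higher after rescaling. *PXG1* differed more than *ATS3*, as its copies on A01 and C01 differed by -2.59 (limma adjusted p 5.97e-06) and -2.07 (adjusted p 3.40e-05), embryo minus maternal, on deposited TPM, and were not called after rescaling (-0.29 and 0.24). The A10 and C09 values of -0.73 and -0.29, or 1.58 and 2.02 rescaled, thus lay on the embryo side of the *PXG1* values on both scales, a difference that was not tested. In the change from heart to mature green, 0 of the 35 genes were higher and 8 lower in the embryo than in maternal tissue (median -1.69) on deposited TPM, beside -1.89 for A10 and -0.12 for C09 and 18.3% lower among all genes. After rescaling 0 were higher and 4 lower (median 0.065), beside -0.55 and 1.75 and 22.2% lower among all genes. Of the 35 genes, 10 were called higher in hEP than in the other heart subregions, where the A10 copy also was and 6.59% of all genes were.

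The genes whose profile was most like *ATS3* were taken by Pearson r over the 26 subregion means of log2(TPM + 1), among 35989 genes that averaged 10 TPM or more in some subregion. For the A10 copy these were BnaA07g13950D (0.99), the cruciferin *CRU1* copies BnaA06g36310D (0.99) and BnaC07g48660D (0.99), BnaC04g49020D (0.99) and BnaC09g47920D (0.99). For the C09 copy they were BnaA06g36310D (*CRU1*, 0.99), BnaC03g41580D (0.99), BnaC07g46180D (0.99), BnaA09g38700D (0.99) and BnaC06g23750D (0.99). An r above 0.95 was shared by 127 genes with A10 and 124 with C09, and the 5 named cannot be separated from one another by these values. The points share their libraries and one large step between stages, so the coefficients describe that step. With *PXG1* the r was 0.97 and 0.98 for A10 and 0.97 and 0.97 for C09, and 34 genes of the maturation list had a median of 0.96 and 0.96, the lowest being -0.57 for the *CRB* gene BnaA06g05390D.

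The genes next to *ATS3* were low at the mature green stage. The 5 identifiers on each side of the A10 copy had highest mature green subregion means of 0.903 to 11.3 TPM, against 189 TPM for *ATS3*, and those around the C09 copy 0.791 to 9.89 TPM against 109 TPM. Their r with the adjoining *ATS3* copy was -0.37 to 0.34 on A10 and -0.53 to 0.55 on C09. Several were instead abundant at earlier stages, some of them in like places on both chromosomes. Other places did not match, such as BnaA10g23590D, highest early in hISC (2.19 TPM), and BnaC09g48310D in the same place on C09, highest early in ovCPT (4.03 TPM). The second gene before *ATS3* was highest in the heart stage peripheral endosperm, at 183 TPM on A10 (BnaA10g23610D) and 318 TPM on C09 (BnaC09g48330D). The gene just before *ATS3* was highest in the globular embryo proper, at 10.5 and 18.1 TPM.

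**Figure D5:**
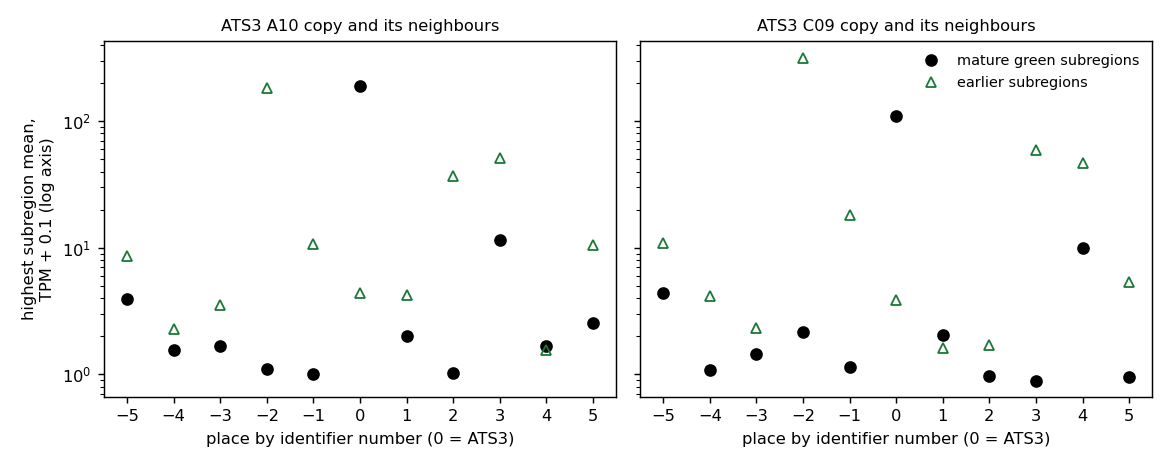
Highest subregion mean at the mature green stage (black circles) and before it (green triangles), in TPM on a log axis, for *ATS3* (place 0) and the 5 gene identifiers on each side of it on A10 and on C09; the horizontal axis is the place in the order of identifiers. *ATS3* reaches 189 and 109 TPM at the mature green stage, while its neighbours stay at or below 11.3 and 9.89 TPM there.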

How the data were processed

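RNA-seq was done on laser-microdissected subregions of *B. napus* seeds. After trimming with fastp, the authors mapped the reads with HISAT2 on the Darmor-bzh genome, used featureCounts for uniquely mapped reads per gene and deposited TPM (versions not given in the sources used here). Groups followed the labels, with 1 column without a replicate number. The members, gene lists and tests were chosen with earlier results of these data known.

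The 99343 of 101040 genes that averaged 1 TPM or more in any subregion were fitted as log2(TPM + 1) with limma 3.58.1 (limma-trend, R 4.3.3), 1 mean per subregion over all 74 libraries, two-sided, Benjamini-Hochberg adjusted over all genes tested, threshold 0.05. Fold changes are on the log2(TPM + 1) scale and understate changes of low genes. Ratios were tested by exact permutation (SciPy 1.17.1), with libraries as the unit and without regard to subregion. In deposited TPM, zero-read genes hold a constant of 0.01 reads. Reads were recovered for 85.2% of genes, whole within 0.05 reads, and were used only for depth and intervals, which cover counting error only. As reads were recovered from TPM and lack part of the genes, no count test was run. The fit was tested on simulated data with 200 changed genes.

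Named genes were both copies, the *PXG1* pair, extremes of the maturation list and of the list of pairs, the 5 genes most like each copy and the 5 identifiers on each side. Same-numbered libraries did not deviate together. Alternatives were pseudocounts of 0.1 and 10 TPM, no filter and a filter of 5 TPM, rescaling without abundant genes, quantile normalization, a replicate block, only the compared subregions, omission of the 3 libraries with conflicting labels and of each library in turn. Rescaling that also left out the maturation list, reads without division by length, and a storage protein sum without the *CRB* pair were added after seeing the data.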

Additional observations from a re-analysis of the deposited data

Results flagged for a closer look

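In the globular micropylar endosperm, 1 library stood apart in TPM for both copies. Its 95% Poisson interval still overlapped that of replicate 1 for the A10 copy and those of all 4 other libraries for the C09 copy. Replicate 2 of gMCE had 6.12 TPM of the A10 copy from 9 reads (exact 95% Poisson interval 2.80 to 11.6), whereas the other 4 libraries of that subregion had 0 to 2 reads, or no more than 0.365 TPM. It had 1.94 TPM of the C09 copy from 4 reads (0.527 to 4.95), whereas the others had 0 to 4 reads, or no more than 0.518 TPM. Of those, a library without reads still allowed up to 3.797 TPM of A10 and 2.70 TPM of C09 at 3 reads. Replicate 2 also had 1701 TPM of storage protein mRNA, against 5.35 to 256 TPM in the others, and its part in the *ATS3* values was not tested. These were 2 of 16 sets of libraries examined for a stray value, and both are the same library. The rule used gives about 1 in 20 by chance for normally distributed values, which values from so few reads need not be.

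The embryo and maternal tissues differed in 3 *ATS3* results by a test of the difference itself. The A10 copy per storage protein TPM differed by -1.62 on the log2 scale, mature green embryo minus maternal (exact permutation p = 0.000333, n = 10 and 5, all 5 embryo libraries below all 10 maternal ones). For the C09 copy the difference was -1.175 (exact permutation p = 0.004995, n = 10 and 5). These permutation tests took libraries as the unit, without regard to subregion. On deposited TPM 94% of all genes were called lower in the embryo, and their ratio to the storage protein sum was not tested. The rise of the A10 copy from heart to mature green differed by -1.89, embryo minus maternal (limma adjusted p 0.0117), a call that was lost after rescaling without the abundant genes.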

How the results depend on the processing

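The rises of both copies from heart to mature green, in maternal tissue and in the embryo, the maternal A10 over C09 ratio and both values per storage protein TPM kept direction and side of the threshold in all alternatives run. Embryo against maternal comparisons did not, and the cause was not tested. The change in the embryo minus that in maternal tissue was, for A10 and C09, -0.55 and 1.75 when rescaled, 0.0064 and 2.30 when the maturation list was also left out of the total, 0.35 and 1.85 after quantile normalization, and -1.66 and 0.19 without the libraries with conflicting labels, and for A10 -0.95 with a pseudocount of 10 TPM. Mature green embryo against maternal was 1.58 and 2.02, 2.14 and 2.58, and 2.11 and 2.43 in the first 3 of these settings, 0.014 for C09 without the conflicting labels and -0.69 for A10 with the pseudocount of 10 TPM. Quantile normalization moved the median gene of that comparison from -1.08 to -0.05.

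Other values that changed side or sign were hEP against other heart subregions for A10 (0.28, pseudocount 10 TPM), hEP against gEP for C09 (0.11 with a pseudocount of 0.1 TPM, 0.26 rescaled, 0.27 without the list, 0.16 quantile), mgCZSC for C09 (-0.84 with a pseudocount of 10 TPM, -1.34 quantile, -1.27 without conflicting labels), mgISC for A10 (-0.22, -0.27 and -0.14) and for C09 (0.14, quantile), and mgOSC for A10 (-0.10, quantile).

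Leaving out single libraries gave these ranges. The embryo minus maternal change was -2.20 to -1.58 for A10 and -0.34 to 0.10 for C09, and mature green embryo against maternal -1.04 to -0.43 for A10. The mgCOT against mgROOT values were -0.33 to 0.90 for A10 and -0.30 to 0.47 for C09. For hEP against other heart subregions they were 0.99 to 1.42 for A10 and -0.082 to 0.33 for C09, and for hEP against gEP -0.43 to 0.085 for C09. Against other maternal subregions, mgCPT ranged from -0.30 to 0.83 for A10, mgCZSC from -1.27 to 0.10 for A10 and -1.96 to -0.24 for C09, mgISC from -0.056 to 0.47 for A10 and -0.60 to 0.28 for C09, and mgOSC from -0.23 to 0.87 for A10. The embryo minus maternal difference of the copy ratio was -0.49 to -0.34.

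The replicate block changed no call (22 of 22 values kept), with -1.83 for the A10 embryo minus maternal change (limma adjusted p 0.0137), and the numbers did not pair the libraries, with a median correlation of deviations of 0.0016 between same-numbered libraries. Counts of all genes called differed by setting, from 3 to 1204 for mgCOT against mgROOT (10 in the main test) and from 42566 to 96246 for mature green embryo against maternal (93488). Before the mature green stage most libraries had 3 reads or fewer on a copy (32 of 59 for A10, 40 of 59 for C09), so differences between early subregions were mostly below what the depth could show.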

Other observations

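Some of the identifiers around the pair had matching positions of early expression on both chromosomes, chosen after their values were seen, and others did not match. The fifth gene before *ATS3* had its highest early mean in ovCZSC on both, at 8.48 TPM on A10 and 10.9 TPM on C09. A gene highest in the globular chalazal endosperm lay 2 places after *ATS3* on A10 (37.0 TPM) and 3 places after it on C09 (58.7 TPM), followed on both by a gene highest in gCPT (50.9 and 46.8 TPM). By these peaks the C09 order holds 1 more identifier between *ATS3* and the later genes.

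The C01 and A01 *PXG1* copies rose in maternal tissue from heart to mature green by 7.53 and 7.17 (both called by limma), against 5.22 and 6.26 for the C09 and A10 copies of *ATS3*, and in the embryo by 5.43 and 5.36 against 5.10 and 4.37.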
